A study of Mus musculus with 172 samples.

Results

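The kinesin genes were taken as all gene symbols that begin with Kif followed by a digit or a c, or with Klc followed by a digit, in the expression tables of cortex and liver. Of 16308 genes listed in either tissue, 44 met this rule, 41 of 14896 in cortex and 39 of 14107 in liver. Both tissues listed 36 of them. *Kif5c*, *Kif6*, *Kif14*, *Kif17* and *Kif27* were listed in cortex only, and *Kif2c*, *Kif12* and *Kif18b* in liver only. No expression value was used to choose them, although the list was drawn up to set *Kif16b* against its relatives. The paper had prioritized *Kif16b* from these same libraries. Its score drew on the fall in cortex after sleep deprivation and on a cis-eQTL (a nearby variant tied to expression) in both tissues. The standing of *Kif16b* among the kinesins is therefore not independent of that choice.

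Kinesins are motor proteins that walk along microtubules, using ATP, and most of them move towards the growing plus end. Heavy chains of the Kif genes carry the motor, and the light chains of the Klc genes link kinesin-1 to its cargo. In neurons they carry vesicles, mitochondria and RNA along axons and dendrites. Other members build the mitotic spindle, divide the cell or move cargo inside cilia, and liver cells use kinesins for endosomes and secretion.

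RNA-seq had been made from male mice aged 11 to 14 weeks at the experiment. They came from 33 BXD/RwwJ lines, which are recombinant inbred lines bred from C57BL/6J and DBA/2J, from both parental strains and from their reciprocal F1 (BD-F1 and DB-F1). Some mice of each line were sleep deprived for 6 h from light onset by gentle handling (SD), the others were left undisturbed in another room (Ctr), and all were killed at the same hour (ZT 6). RNA of the mice of a line and condition was pooled, so each library is 1 pool, with 39 pools per condition and tissue (37 strains, the parental strains having 2 pools each, one from the start and one from the end of the study). Both tissues were taken from each mouse, although the sources used here do not give which mice entered the pool of each tissue. Fewer mice stood behind BXD79, BXD85 and BXD101. No group carried a transgene or an engineered deletion. A further 16 libraries of BXD/TyJ lines entered only as an alternative. Throughout, values are log2 CPM (reads scaled to the library total, on a log2 scale) unless said otherwise, n is 39 pools per condition, and a change is called in limma where its p, adjusted after Benjamini and Hochberg across the genes of that tissue, is under 0.05.

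Cortex libraries held 18995492 to 28998853 reads and liver libraries 4681101 to 8269401, and a gene without a read stands at about -4.5 in cortex and -2.8 in liver. The 6 neuron markers were listed in cortex and summed to 12.97 to 13.15 in Ctr pools, and all 7 hepatocyte markers were listed in liver, with sums of 11.8 to 12.5. In a bulk tissue, fewer cells of a type and less RNA per cell cannot be told apart. A pair of libraries stood apart. The Ctr cortex library of BXD90 differed from the median of its group by 0.196 in a typical gene (0.0413 to 0.117 in the other Ctr libraries), and the SD liver library of BXD70 by 0.431 (0.0698 to 0.222 in the others). In both, the deviation was more negative for longer transcripts (correlation across genes with log2 exonic length of -0.611 over 8166 genes and -0.645 over 8759 genes, a description only). Each SD, strain and tissue result was therefore also computed without these pools. The correlation with length ran from -0.22 to 0.249 in the other Ctr cortex libraries and from -0.492 to 0.41 in other SD liver libraries. Weaker trends with length, of either sign, thus remain in the libraries kept. The cause of the deviation was not tested.

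In cortex, 23 of the 41 kinesin genes (56.1%) changed after SD, 9 up and 14 down, against 68.4% of all genes tested (33% up and 35.4% down). In liver, 11 of 39 (28.2%) changed, 4 up and 7 down, against 44.2% of all genes (21.5% up and 22.6% down). These shares are a description and sit below those of all genes, and 13 of the cortical members and 24 of those in liver had under 50 Ctr reads on average. The median log2 fold change of the members was -0.01 in cortex and -0.05 in liver (-0.01 and -0.00 over all genes), and the median size was 0.097 and 0.201 (0.125 and 0.117 over all genes). With line added as a replicate block, so that SD is set against Ctr within each line, the counts were 27 in cortex (11 up, 16 down) and 17 in liver (5 up, 12 down). Over all genes the block gave 11359 of 14896 in cortex (5458 up, 5901 down) and 7603 of 14107 in liver (3672 up, 3931 down). Among the members, *Kif17*, *Kif27*, *Kif3a* and *Klc1* were the additions in cortex, and *Kif18a*, *Kif1b*, *Kif22*, *Kif26b*, *Kif5a* and *Klc1* those in liver. Without BXD90, 23 members were called in cortex (9 up), and without BXD70, 12 in liver (4 up), where *Kif26a* left and *Kif22* and *Kif5a* entered.

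**Figure D1:**
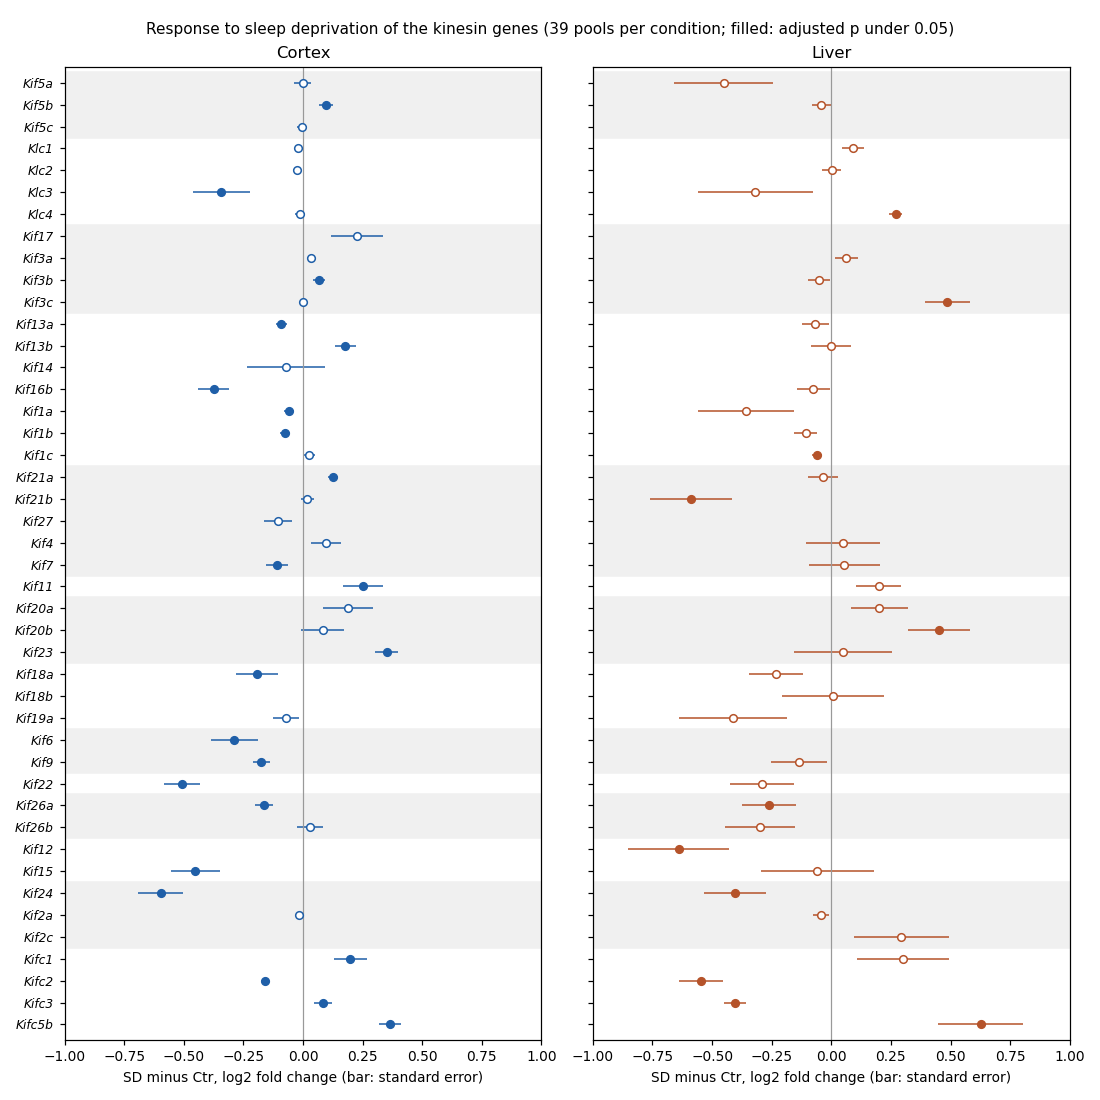
Log2 fold change after SD (horizontal axis, SD minus Ctr, bars are standard errors) of each kinesin gene listed in cortex (left) and liver (right), with genes grouped by family on the vertical axis, filled symbols for adjusted p under 0.05 and 39 pools per condition. Changes lay between -0.60 (*Kif24*) and 0.37 (*Kifc5b*) in cortex and between -0.64 (*Kif12*) and 0.63 (*Kifc5b*) in liver, and 23 symbols in cortex and 11 in liver are filled.

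Kinesin-3 is the family of *Kif16b*, whose protein carries early endosomes towards microtubule plus ends and binds their membrane lipid through a PX domain. Of the 7 family members listed in cortex, 5 changed, 4 down and 1 up, beside 68.4% of all genes. The fall of *Kif16b* was the largest of these by absolute log2 fold change. In liver 1 of 6 changed, beside 44.2% of all genes. The family also holds *Kif1a*, *Kif1b* and *Kif1c*, which carry synaptic vesicle precursors, mitochondria or dense-core vesicles, *Kif13a* and *Kif13b*, motors of endosomes and of membrane scaffolds, and *Kif14*, needed for cytokinesis. *Kif28*, also assigned to this family, is not among the listed genes.

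*Kif16b* (mm9 chr2:142443210-142727267, minus strand) ranged from 3.79 over a median of 4.27 to 4.85 in Ctr cortex and from 3.60 over 3.89 to 4.51 in SD cortex. The ranges overlap, yet the SD library was the lower one in 38 of 39 pools. It fell by 0.38 on the log2 scale (standard error 0.0648, adjusted p = 3.91e-07, limma), and with the replicate block of line the adjusted p was 3.07e-18. The single pool with a higher SD value was BXD90, by 0.07, and the other 38 changes ran from -0.68 in BD-F1 to -0.05 in BXD65a. The SD cortex library of BD-F1 had the lowest correlation with transcript length in its group (-0.40). The part of this trend in the BD-F1 values was not tested. Across pools the changes had an SD of 0.16, against 0.101 from the counting of reads alone, a ratio of 1.58 (1.43 without BXD90). The reads behind it were 494 per Ctr library and 378 per SD library on average. In liver its level was 5.63 to 6.60 in Ctr pools and 4.95 to 6.52 in SD pools. The estimate there was -0.08 (standard error 0.0682, adjusted p = 0.394, limma), with 23 of 39 pools lower in SD. The change of BXD70 was -1.32 there, and without it the estimate was -0.04 (adjusted p = 0.624).

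The relatives of *Kif16b* had smaller log2 fold changes in cortex. *Kif13b* ran from 4.50 over 5.53 to 5.82 in Ctr and from 5.25 over 5.67 to 5.88 in SD cortex, and it rose by 0.18 (standard error 0.042, adjusted p = 0.000132, limma), with the higher value in SD in 35 of 39 pools. Its lowest Ctr value and largest rise, 1.14, belonged to BXD90. Without that pool the rise was 0.15 (adjusted p = 7.74e-05), and the next largest was 0.46 in BXD48. *Kif13a*, its closest namesake, fell by 0.09 on the log2 scale (adjusted p = 0.000386, limma), with lower SD values in 33 of 39 pools. *Kif1a* and *Kif1b*, with 40586 and 29517 reads per Ctr library on average, fell by 0.06 (adjusted p = 0.015) and 0.07 (adjusted p = 0.000837, limma), in 36 of 39 pools each. Between pools the changes of *Kif1a* varied 7.84 times and those of *Kif1b* 9.59 times as much as counting alone gives, or 5.42 and 5.24 times without BXD90. *Kif1c* had a log2 fold change of 0.03 (adjusted p = 0.335) and *Kif14*, with 12.8 reads per Ctr library, one of -0.07 (adjusted p = 0.715, limma).

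In liver *Kif1c* was the single kinesin-3 gene called. *Kif1c* ran from 8.59 over 8.83 to 9.05 in Ctr and from 8.53 over 8.79 to 8.95 in SD liver and fell by 0.06 (standard error 0.0225, adjusted p = 0.023, limma), with lower SD values in 28 of 39 pools. With libraries centred on their medians the adjusted p was 0.100. *Kif1b* had a log2 fold change of -0.11 (adjusted p = 0.0662, limma), and with the replicate block its adjusted p was 0.0246. *Kif13a* stood at -0.07 (adjusted p = 0.35) and *Kif13b* at 0.00 (adjusted p = 0.999, limma). The lowest change of *Kif13b*, *Kif1b*, *Kif13a* and *Kif16b* fell in the same pool, BXD70, at -2.59, -1.46, -1.30 and -1.32, whereas *Kif1c* spanned only -0.24 to 0.10 over all 39 pools. *Kif1a*, a neuronal gene with 5.03 reads per Ctr library in liver and no read in 7 libraries, ranged from -3.04 to 2.02 between pools, a spread 1.21 times that of counting.

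**Figure D2:**
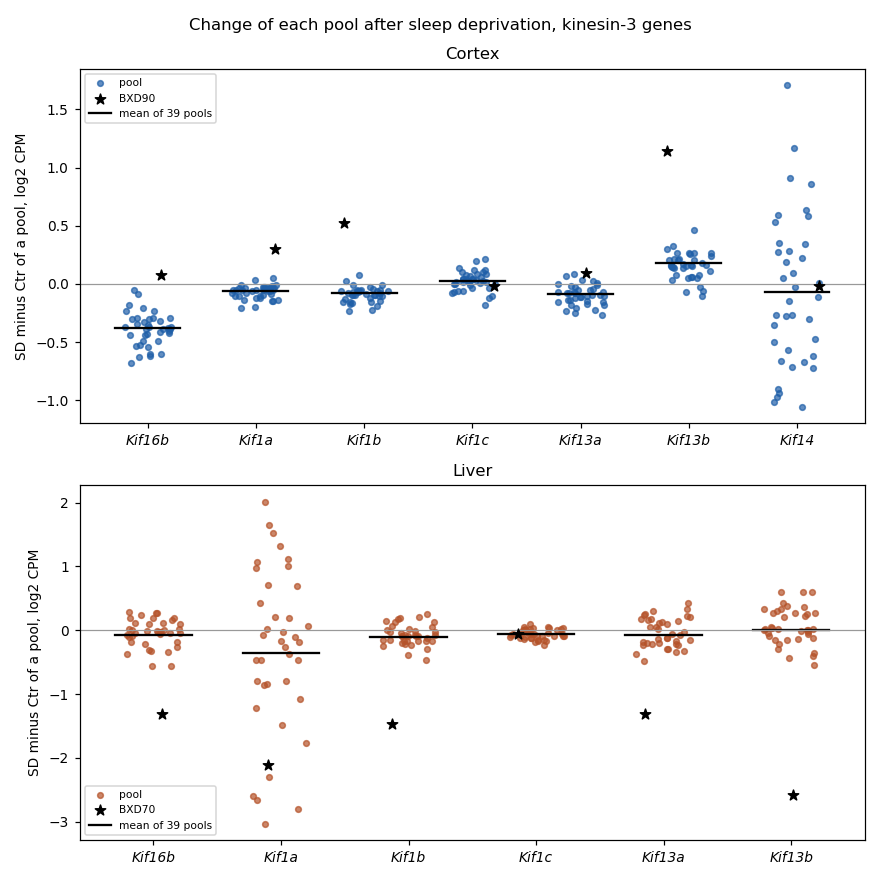
SD minus Ctr of each of 39 pools (points, vertical axis in log2 CPM) for the kinesin-3 genes in cortex (top) and liver (bottom), with the mean as a line and the pool with the library that stood apart as a star. *Kif16b* has 38 of 39 points below 0 in cortex, and the star of BXD70 is the lowest point of *Kif16b*, *Kif1b*, *Kif13a* and *Kif13b* in liver.

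The promoter of *Kif16b* is shown because it is the gene whose fall stood out in its family. These 183 bases before the gene (RefSeq, GRCm38.p6 promoter table, matched exactly to mm9, chr2:142727268-142727450, minus strand) lie outside annotated exons, and none of the 4 motifs searched on both strands is in its 250-base window, namely CCAAT (the CCAAT box, in 34.5% of 27025 promoters), TTTGAA (a cell cycle homology region, in 16.3%), CACGTG (an E-box, in 6.05%) and TGACGTCA (a cAMP response element, in 1.62%). That says only that these letters are absent from the window.
Kif16b: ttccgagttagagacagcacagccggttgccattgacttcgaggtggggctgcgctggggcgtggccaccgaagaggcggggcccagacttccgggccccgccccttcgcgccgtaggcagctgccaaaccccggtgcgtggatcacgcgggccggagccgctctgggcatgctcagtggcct

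Levels of *Kif16b* also differed between strains. Ordered by level in Ctr cortex, 21 pools lay between 3.79 (BXD90) and 4.28 (BXD84) and 18 between 4.52 (DB-F1) and 4.85 (BXD85). The interval of 0.239 between these was the widest between neighbours in the order, the next widest being 0.116. In SD cortex the widest interval, 0.197, again had 21 pools below it and 18 above it, and 20 pools lay below it and 17 above it in both conditions. BXD56 was below it in Ctr only, and BD-F1 in SD only, in the library with the length trend given above. In Ctr liver neighbours in the order differed by 0.124 at most. Since that next widest interval is close to the counting error of a change (0.101), no rank within the lower or the upper stretch should be read.

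**Figure D3:**
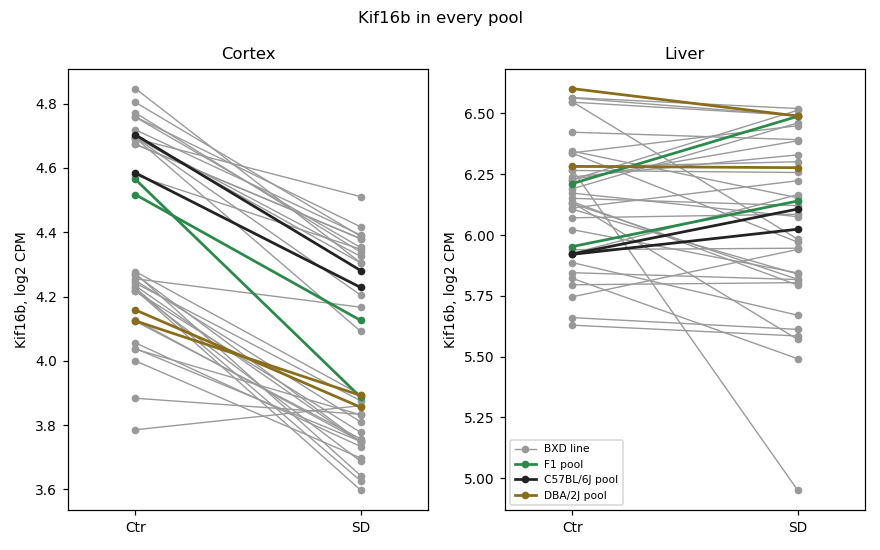
*Kif16b* in log2 CPM (vertical axis) in the Ctr and SD libraries of each of the 39 pools, joined by a line, in cortex (left) and liver (right), with BXD lines in grey and parental and F1 pools in colour. In cortex 38 of 39 lines slope down and Ctr levels leave an interval from 4.28 to 4.52 empty, and in liver the steepest line is that of BXD70.

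The parental strains, which carry the alleles that segregate in the BXD lines, were opposed in order between tissues for *Kif16b*. In Ctr cortex C57BL/6J was at 4.58 and 4.70 and DBA/2J at 4.12 and 4.16, and in SD cortex at 4.23 and 4.28 against 3.89 and 3.86, so the strains did not overlap within a condition. The difference, DBA/2J minus C57BL/6J over both conditions, was -0.44 (standard error 0.0597, adjusted p = 5.27e-05, limma on 8 pools). In liver C57BL/6J was at 5.92 in both Ctr pools and at 6.11 and 6.02 after SD, DBA/2J at 6.60 and 6.28 in Ctr and 6.49 and 6.28 after SD, and the difference was 0.42 (standard error 0.0839, adjusted p = 0.00303, limma). The difference between these 2 differences was not tested. The F1 pools were at 4.56 (BD-F1) and 4.52 (DB-F1) in Ctr cortex, next to C57BL/6J, and at 3.89 and 4.13 in SD cortex. Reads of DBA/2J were aligned to the C57BL/6J reference, and its part in parental differences was not tested. Of all genes, 25.5% in cortex and 17.9% in liver were called between the parental strains, and of the kinesins 13 of 41 (31.7%) and 3 of 39 (7.69%).

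Kinesin-1 is the principal motor of fast axonal transport, a tetramer of heavy chains from *Kif5a*, *Kif5b* or *Kif5c* and light chains. Per kb of exon, *Kif5a* was the most abundant kinesin of the cortex (545 CPM per kb in Ctr), before *Kifc2* (230) and *Kif1a* (213), and *Kif5c* stood at 193. In liver, *Kif1c* (64.8 CPM per kb), *Klc4* (63.0) and *Kif1b* (30.8) led, and the ubiquitous *Kif5b* stood at 25.7. The tables of the tissues were normalized apart, so levels are compared within a tissue only.

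The neuronal heavy chains were not called after SD in cortex. *Kif5a* was at 11.83 ± 0.17 in Ctr and 11.83 ± 0.15 in SD pools (SD, n = 39), with a log2 fold change of -0.00 (adjusted p = 0.994, limma) and changes from -0.14 to 0.20, and *Kif5c* had -0.01 (adjusted p = 0.853). *Kif5b*, the form found in all tissues, was at 7.60 to 8.43 in Ctr and 8.03 to 8.45 in SD cortex and rose by 0.10 (standard error 0.0297, adjusted p = 0.00278, limma), in 30 of 39 pools, or by 0.08 without BXD90 (adjusted p = 0.00419), whose own change was 0.61. In liver it stood at -0.04 (adjusted p = 0.449). *Kif5a* in liver rested on 7.67 reads per Ctr library. Its log2 fold change of -0.45 missed the threshold (adjusted p = 0.0695, limma), but not with the replicate block (adjusted p = 0.0116) nor without BXD70 (-0.50, adjusted p = 0.0421).

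Among the light chains, *Klc4* was the single kinesin in liver whose change had the same sign in every pool. It ran from 6.95 over 7.23 to 7.62 in Ctr and from 7.29 over 7.48 to 7.81 in SD liver, and every one of the 39 pools was higher in SD, by 0.05 (B6-1) to 0.67 (BXD70). The rise was 0.27 (standard error 0.0279, adjusted p = 1.45e-13, limma) from about 997 reads per Ctr library, and 0.26 without BXD70. In cortex the same gene stood at -0.01 (adjusted p = 0.637), with 21 pools higher and 18 lower. *Klc3* fell by 0.34 on the log2 scale in cortex (standard error 0.12, adjusted p = 0.0091, limma, lower in SD in 34 of 39 pools) from 43.7 reads per Ctr library. In liver, at 5.49 reads, its log2 fold change was -0.32 (adjusted p = 0.3), and the tissues did not differ by the test (0.02, adjusted p = 0.939). With quantile normalization the adjusted p of *Klc3* in cortex was 0.0572, and with the replicate block it was 8.47e-07. *Klc1* and *Klc2*, the abundant light chains of the brain, had log2 fold changes of -0.02 (adjusted p = 0.0781, and 0.0497 with the replicate block) and -0.03 (adjusted p = 0.185, limma) in cortex. In liver *Klc1* stood at 0.09 (adjusted p = 0.108, or 0.0321 with the block) and *Klc2* at 0.00 (adjusted p = 0.985).

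The promoter of *Klc4* is the only one among 35 member promoters in the table with the E-box CACGTG (2.86%, against 6.05% of all promoters). It is printed because the gene rose in every pool in liver, with its CCAAT boxes and E-box in capitals (148 bases outside annotated exons, mm9 chr17:46783030-46783177, minus strand). The match is a description and not a binding site.
Klc4: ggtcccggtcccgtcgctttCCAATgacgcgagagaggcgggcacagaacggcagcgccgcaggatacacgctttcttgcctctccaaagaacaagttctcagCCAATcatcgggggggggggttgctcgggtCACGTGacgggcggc

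Kinesin-2 motors work in intraflagellar transport and in neurites. *Kif3a* pairs with *Kif3b* or *Kif3c*, and *Kif17* is known for carrying NMDA receptor subunits into dendrites. In cortex *Kif3b* rose by 0.07 (adjusted p = 0.0147, limma, higher in SD in 33 of 39 pools). *Kif3a* stood at 0.03 (adjusted p = 0.0838, and 0.00138 with the replicate block), and *Kif3c* at -0.00 (adjusted p = 0.934). *Kif17* ran from 4.04 over 4.84 to 5.54 in Ctr and from 4.18 over 5.01 to 5.53 in SD cortex. These ranges are nearly the same, but the SD value was higher in 37 of 39 pools. The log2 fold change of 0.23 (standard error 0.109) missed the threshold in the unpaired fit (adjusted p = 0.057, limma), and passed it with the replicate block (adjusted p = 1.16e-12). In liver *Kif3c* rose by 0.49 (standard error 0.0951, adjusted p = 1.28e-05, limma) from 23.2 to 31.3 reads per library, with higher SD values in 33 of 39 pools, while *Kif3a* stood at 0.06 (adjusted p = 0.292) and *Kif3b* at -0.05 (adjusted p = 0.386).

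Kinesin-4 holds the neuronal *Kif21a* and *Kif21b*, the chromosome-bound *Kif4*, and *Kif7* and *Kif27*, of which *Kif7* is part of Hedgehog signalling at the cilium tip. *Kif21a* ran from 7.80 over 8.26 to 8.41 in Ctr and from 8.19 over 8.37 to 8.54 in SD cortex, rising by 0.12 (standard error 0.0201, adjusted p = 7.02e-08, limma) in 37 of 39 pools. *Kif7* fell by 0.11 on the log2 scale (adjusted p = 0.0294). *Kif21b* (0.02, adjusted p = 0.565), *Kif4* (0.10, adjusted p = 0.175) and *Kif27* (-0.10, adjusted p = 0.109, or 0.00313 with the replicate block) were not called by limma. In liver *Kif21b* fell by 0.59 (standard error 0.17, adjusted p = 0.003, limma) from 39.4 to 26.4 reads per library, with 30 of 39 pools lower in SD. The SD library of BXD70 held no read of it, a change of -4.54 in the table, and without that pool the fall was 0.48 (adjusted p = 0.000874). *Kif21a*, *Kif4* and *Kif7* stood at -0.03, 0.05 and 0.06 in liver (adjusted p = 0.696, 0.835 and 0.798).

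The mitotic kinesins are those that build and pull on the spindle or act in cytokinesis. Of the 10 listed in cortex, 6 changed, 3 up and 3 down, beside 68.4% of all genes (33% up and 35.4% down). *Kif23*, of the central spindle, ran from 0.63 over 1.14 to 1.58 in Ctr and from 1.00 over 1.48 to 1.94 in SD cortex and rose by 0.35 (standard error 0.0493, adjusted p = 1.62e-09, limma, 36 of 39 pools). *Kif11*, the motor that pushes spindle poles apart, rose by 0.25 (adjusted p = 0.00733, 29 of 39 pools), and *Kifc1* by 0.20 (adjusted p = 0.00896, 26 of 39 pools). *Kif22*, a chromosome-arm motor, ran from -0.25 over 0.56 to 1.14 in Ctr and from -0.87 over -0.02 to 0.73 in SD cortex and fell by 0.51 (standard error 0.0772, adjusted p = 1.55e-08, limma, 31 of 39 pools). *Kif15*, which backs up *Kif11* in the spindle, fell by 0.45 (adjusted p = 6.69e-05, 32 of 39 pools), and *Kif18a* by 0.19 (adjusted p = 0.0466, 24 of 39 pools). These genes are sparse, with 12.9 (*Kif15*) to 50.0 (*Kif23*) reads per Ctr library among the called ones, and the spread of their changes between pools was 0.915 to 1.19 times that of counting. *Kif20a* (0.19, adjusted p = 0.102) and *Kif20b* (0.08, adjusted p = 0.419) missed the threshold, as did *Kif14* and *Kif4* above.

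Of 13 markers of proliferating cells listed in cortex, 5 rose (*Ccnb2* by 0.69, *Cenpf* by 0.42, *Top2a* by 0.22, *Cdc20* by 0.20, *Plk1* by 0.19). The 2 that fell were *Nusap1* (-0.78) and *Cenpe* (-0.31). Of all genes in cortex, 33% rose and 35.4% fell. The sum of the proliferating cell markers was 3.73 to 4.40 in Ctr and 3.85 to 4.55 in SD pools. The part of such cells in the kinesin changes was not tested. In liver 1 of 11 mitotic kinesins changed (44.2% of all genes). *Kif20b*, which acts in cytokinesis, ran from 0.25 over 1.37 to 2.86 in Ctr and from 0.59 over 1.92 to 2.87 in SD liver and rose by 0.45 (standard error 0.129, adjusted p = 0.00262, limma, 31 of 39 pools), beside 1 of 17 proliferation markers (*Aurka*, 0.41). The other 10 lay between -0.29 (*Kif22*, adjusted p = 0.0711, or 0.0273 with the replicate block) and 0.30 (*Kifc1*, adjusted p = 0.216).

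Promoters of *Kif11*, *Kif22* and *Kif23* are shown because these genes share cell cycle roles but moved in different directions in cortex. TTTGAA was found in 7 of 35 member promoters (20%: *Kif11*, *Kif14*, *Kif15*, *Kif22*, *Kif26b*, *Kif27*, *Kif2c*) and in 16.3% of all, CCAAT in 17 of 35 (48.6%) and in 34.5% of all. Both are read on either strand and do not overlap each other in letters. *Kif11* and *Kif22* hold both, and *Kif23* holds CCAAT only. Capitals mark these motifs, and all 3 windows lie outside annotated exons (mm9, chr19:37450622-37450871 on the plus strand, chr7:134185935-134186184 and chr9:61794607-61794856 on the minus strand).
Kif11: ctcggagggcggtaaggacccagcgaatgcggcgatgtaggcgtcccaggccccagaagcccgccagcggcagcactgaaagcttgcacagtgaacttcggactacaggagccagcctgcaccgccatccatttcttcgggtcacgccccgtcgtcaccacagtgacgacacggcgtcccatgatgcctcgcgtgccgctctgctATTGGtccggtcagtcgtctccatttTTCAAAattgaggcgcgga
Kif22: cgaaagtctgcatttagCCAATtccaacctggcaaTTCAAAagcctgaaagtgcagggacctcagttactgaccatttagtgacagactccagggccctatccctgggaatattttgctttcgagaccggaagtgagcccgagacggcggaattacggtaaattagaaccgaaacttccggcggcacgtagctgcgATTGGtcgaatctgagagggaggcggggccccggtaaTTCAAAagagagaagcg
Kif23: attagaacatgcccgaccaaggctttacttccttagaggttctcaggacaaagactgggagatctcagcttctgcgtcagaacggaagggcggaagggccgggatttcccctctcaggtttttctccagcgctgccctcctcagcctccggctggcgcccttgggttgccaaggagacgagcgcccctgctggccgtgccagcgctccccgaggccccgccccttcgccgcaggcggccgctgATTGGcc

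Several kinesins serve cilia and centrioles. *Kif24*, a kinesin-13 of the mother centriole that restrains cilium growth, had the largest fall of all members in cortex. It ran from -0.83 over 0.00 to 0.92 in Ctr and from -1.77 over -0.58 to 0.06 in SD cortex, and it fell by 0.60 (standard error 0.0955, adjusted p = 5.96e-08, limma, 34 of 39 pools), from 22.5 to 14.4 reads per library. In liver it fell by 0.40 (standard error 0.129, adjusted p = 0.0071, limma, 30 of 39 pools). *Kif9* and *Kif6*, kinesin-9 motors of motile cilia, fell by 0.18 (adjusted p = 1.22e-05) and 0.29 (adjusted p = 0.0083) in cortex, in 32 and 27 of 39 pools. *Kif19a*, which trims cilia, stood at -0.07 (adjusted p = 0.253). Of 7 markers of ependymal and ciliated cells listed in cortex, 3 were called up (*Foxj1* by 0.63, *Tekt1* by 0.52, *Dnah9* by 0.27) and none down. Of all genes in cortex, 33% rose and 35.4% fell. The part of such cells in the kinesin changes was not tested. In liver *Kif9* (-0.13, adjusted p = 0.378) and *Kif19a* (-0.41, adjusted p = 0.133, no read in 8 libraries) were not called. *Kif2a*, the main microtubule-shortening kinesin of neurons, was among the steadiest members, at 6.58 ± 0.05 in Ctr and 6.56 ± 0.07 in SD cortex (SD, n = 39) with -0.02 (adjusted p = 0.325), and -0.04 in liver (adjusted p = 0.31). *Kif2c*, listed in liver only, stood at 0.29 (adjusted p = 0.243).

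*Kif26a* and *Kif26b*, kinesin-11 proteins without motor activity, were set side by side. In cortex *Kif26a* fell by 0.17 (adjusted p = 8.1e-05, 31 of 39 pools) and *Kif26b* stood at 0.03 (adjusted p = 0.664, limma). In liver *Kif26a* had -0.26 at the edge of the threshold (adjusted p = 0.0495, 29 of 39 pools), and without BXD70 its adjusted p was 0.0637. *Kif26b* had -0.30 there (adjusted p = 0.0916, or 0.0391 with the replicate block), with no read in the SD library of BXD70. *Kif12*, an epithelial kinesin known from kidney and bile duct, gave the largest fall of any kinesin in liver, -0.64 (standard error 0.212, adjusted p = 0.00968, limma), from 7.9 to 4.62 reads per library, with 25 of 39 pools lower in SD and 5 libraries without a read. Of 6 bile duct markers, 1 fell (*Sox9*, -0.41), beside 22.6% of all genes in liver. The sum of these markers was 6.41 to 7.50 in Ctr and 6.23 to 7.52 in SD pools. *Kif15* (-0.06, adjusted p = 0.867) and *Kif18b* (0.01, adjusted p = 0.983) were near 0 in liver, and *Kif18a* stood at -0.23 (adjusted p = 0.0953, or 0.0372 with the block).

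Kinesin-14 motors walk towards the minus end. All 4 listed in cortex changed, 3 up and 1 down, beside 68.4% of all genes, and in liver 3 of 4, beside 44.2%. *Kifc2*, a neuronal motor of dendrites, ran from 9.32 over 9.54 to 9.65 in Ctr and from 9.21 over 9.37 to 9.52 in SD cortex and fell by 0.16 (standard error 0.0158, adjusted p = 3.1e-15, limma, 37 of 39 pools), the smallest p of any kinesin in that tissue in the unpaired fit. With the replicate block *Kif16b* had the smallest (3.07e-18, against 8.62e-15 for *Kifc2*). In liver it ran from 2.59 to 4.13 in Ctr and from 1.89 to 3.56 in SD pools and fell by 0.55 (standard error 0.0912, adjusted p = 4.87e-07, limma, 31 of 39 pools). *Kifc3*, which carries membrane to the apical side of epithelia, ran from 6.05 over 6.40 to 6.85 in Ctr and from 5.53 over 5.93 to 6.51 in SD liver and fell by 0.40 (standard error 0.045, adjusted p = 2.68e-12, limma, 34 of 39 pools). In cortex it rose by 0.08 in 29 of 39 pools, at the edge of the threshold in the unpaired fit (adjusted p = 0.0495, limma). The adjusted p was 0.0618 with median-centred libraries and 0.000178 with the replicate block. *Kifc5b* rose by 0.37 in cortex (adjusted p = 4.48e-11, 37 of 39 pools) and by 0.63 in liver (adjusted p = 0.00246, 27 of 39 pools, limma), the latter from 6.1 to 8.56 reads per library. It shares stretches of at least 100 bases with *Kifc1*, covering 19% of its exonic windows and 24.1% of those of *Kifc1*, so reads of this pair may be split or lost and both are uncertain. No other member shared such a stretch with a member.

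Of the 36 kinesins listed in both tissues, 5 were called in both. This count is a description only, as the share of all genes called in both was not computed. *Kif24*, *Kif26a* and *Kifc2* fell in both and *Kifc5b* rose in both, whereas *Kifc3* rose in cortex and fell in liver. The difference itself was tested pool by pool, as liver change minus cortex change, and 14 of 36 members (38.9%) were called, against 57.6% of all genes. The liver change was the higher one for *Kif3c* (difference 0.49, standard error 0.0816, adjusted p = 1.9e-06, limma), in 32 of 39 pools, for *Kif20b* (0.37), *Kif16b* (0.30, higher in 31 of 39 pools), *Klc4* (0.28, 38 of 39 pools) and *Klc1* (0.11). It was the lower one for *Kif21b* (-0.61, standard error 0.133, adjusted p = 0.000143), in 31 of 39 pools, for *Kifc3* (-0.49, 38 of 39 pools), *Kif5a* (-0.45), *Kifc2* (-0.39), *Kif26b* (-0.33), *Kif21a* (-0.16), *Kif5b* (-0.14), *Kif3b* (-0.12) and *Kif1c* (-0.09). In kinesin-3, then, *Kif16b* and *Kif1c* differed between tissues in opposite directions, and *Kif13b* missed the threshold (-0.18, adjusted p = 0.0708). Without BXD70 and BXD90 there were again 14, with *Kif23* in and *Kif26b* out.

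The spread between strains was measured over the Ctr and SD pools of 37 strains with condition in the model. Strain effects were called for 25 of 41 kinesins in cortex (61%, against 55.5% of all genes) and 21 of 39 in liver (53.8%, against 62.1%). The intraclass correlation by strain, the share of the variance between pools that lies between strains, ran from -0.08 to 0.95 in cortex, and in liver from -0.17 to 0.70. In cortex *Kif17* (0.95), *Kif5a* (0.89), *Kif16b* (0.86), *Klc3* (0.78) and *Kif3a* (0.77) led, and in liver *Kif1c* (0.70), *Kif26a* (0.68), *Kif21a* (0.58), *Kif23* (0.55) and *Kif16b* (0.55). *Kif16b* is the single gene in both of these leading 5. SD and Ctr mice were paired within cohorts, and lines were spread over cohorts as far as possible. The part of the cohort in the strain effects was not tested. Without BXD90, 27 kinesins had a called strain effect in cortex, and without BXD70, 21 in liver.

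**Figure D4:**
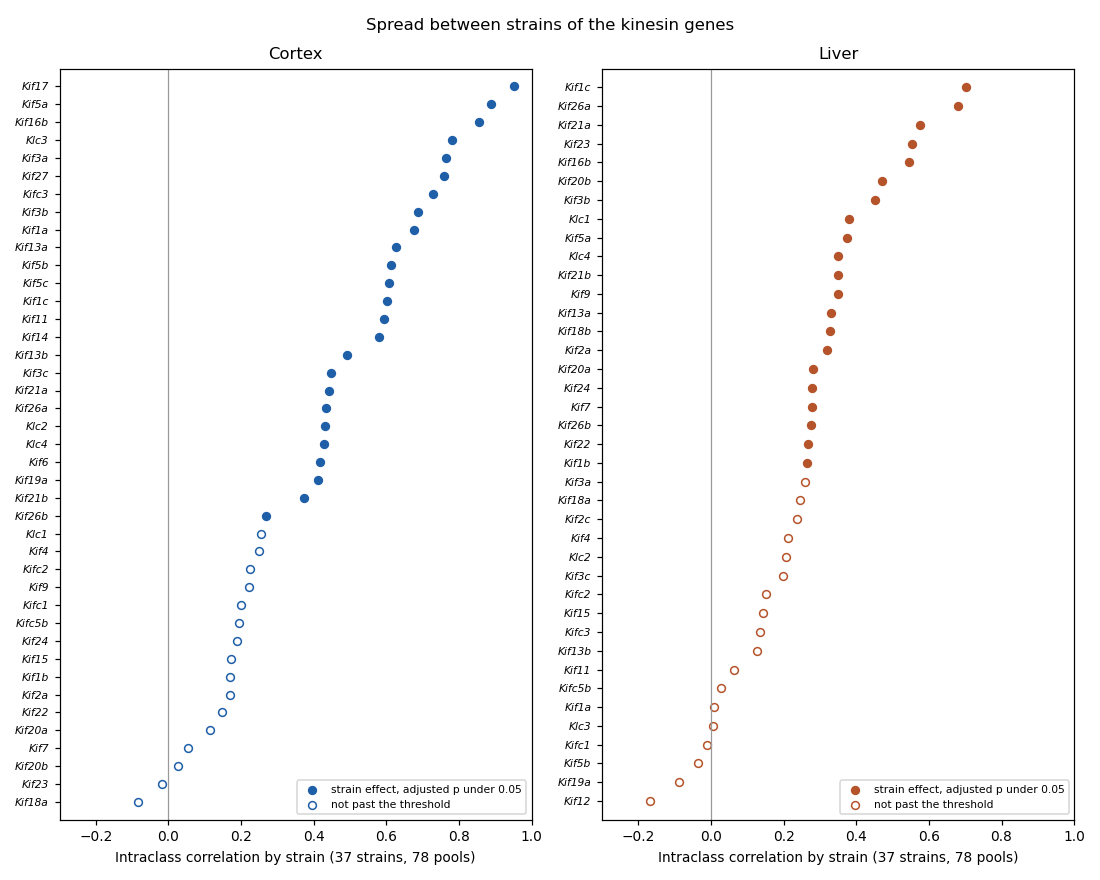
Intraclass correlation by strain (horizontal axis) of each kinesin in cortex (left) and liver (right), ordered by value over the pools of 37 strains, with filled symbols for a strain effect at adjusted p under 0.05. *Kif17* at 0.95 leads in cortex and *Kif1c* at 0.70 in liver, and *Kif16b* stands at 0.86 and 0.55.

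*Kif17*, with the highest intraclass correlation, covered levels of 4.04 to 5.54 in Ctr cortex, and its changes ran from -0.26 (BXD56) to 0.50 (BXD95) with an SD of 0.144, the same as the median over all genes. In Ctr pools C57BL/6J was at 5.26 and 5.04, the F1 at 4.69 and 4.84, and DBA/2J at 4.41 and 4.10, and the strain difference was -0.90 (standard error 0.0724, adjusted p = 2.7e-07, limma). *Kif5a* likewise stood at 12.15 and 12.05 in C57BL/6J and 11.73 and 11.68 in DBA/2J (difference -0.37, adjusted p = 3.93e-05), with F1 pools at 11.80 and 11.71. *Klc3* had the opposite order, at 0.66 and -0.41 in C57BL/6J and 1.75 and 1.72 in DBA/2J (difference 1.55, standard error 0.217, adjusted p = 7.67e-05). *Kif3a* was also higher in DBA/2J in cortex (0.19, adjusted p = 0.00246). The other cortical differences past the threshold belonged to *Kif14* (-1.45), *Kif6* (-0.55), *Kif27* (-0.44), *Kif5b* (-0.26), *Kifc3* (-0.25), *Kif3b* (-0.17), *Kif26b* (0.35) and *Klc4* (0.18). With the pool number of each parental strain as a replicate block, *Kif6* missed the threshold (adjusted p = 0.0514), and *Kif21a* (adjusted p = 0.0331) and *Kif26a* (adjusted p = 0.0405) passed it. In liver *Kif26a* was higher in DBA/2J (0.75, adjusted p = 0.0441), with Ctr pools at 2.54 and 2.71 against 1.99 and 1.75 (adjusted p = 0.0563 with the pool number as a replicate block), and *Kif21a* was lower (-0.34, adjusted p = 0.0087). Of the kinesins, *Kif16b* was the single one past the threshold between parental strains in both tissues, and with that block *Kif21a* was the other one (0.12 in cortex, and adjusted p = 0.0127 in liver). Without pool D2-1 the adjusted p of *Kif16b* in liver was 0.0502.

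**Figure D5:**
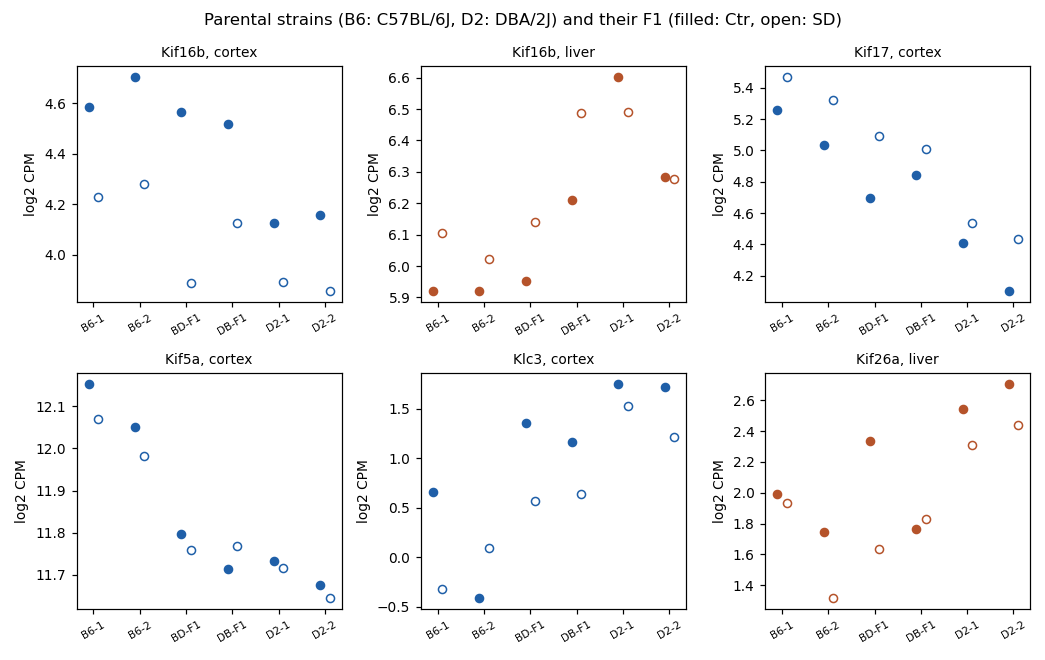
Log2 CPM (vertical axes, scaled for each panel) of *Kif16b*, *Kif17*, *Kif5a* and *Klc3* in cortex and *Kif16b* and *Kif26a* in liver in the 2 pools of C57BL/6J, the reciprocal F1 and the 2 pools of DBA/2J (horizontal axis), filled for Ctr and open for SD. *Kif16b* descends from C57BL/6J to DBA/2J in cortex (-0.44) and ascends in liver (0.42), and *Kif17* descends by 0.90 in cortex.

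The spread of the change between pools is a description, and its relation to the number of reads was not tested. Each change rests on a single Ctr and a single SD library, so differences between mice and libraries enter it as well. The median SD of the change was 0.181 over the kinesins in cortex (0.144 over all genes) and 0.582 in liver (0.247 over all genes). Set against the spread that counting alone gives, the ratio was 1.45 in cortex (1.46 over all genes) and 1.44 in liver (1.63 over all genes). In cortex *Kif5a* had the widest spread on this scale, 10.4 times counting although its changes had an SD of only 0.0739, followed by *Kif1b* (9.59) and *Kif1a* (7.84), all genes with very many reads. At the other end *Kif27* (0.788) and *Kif15* (0.915) varied no more than counting gives. *Kif16b*, at 1.58, lay near the middle of the cortical members.

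The pools at the ends of these spreads were often those with the libraries that stood apart. In cortex BXD90 had the highest change of *Kif13b* (1.14), *Kif26b* (1.15), *Kif5b* (0.61), *Kif21a* (0.54) and *Kif1b* (0.52). In liver BXD70 had the lowest change of *Kif21b* (-4.54), *Kif26b* (-4.05), *Kif13b* (-2.59), *Kif21a* (-1.36) and *Kif5b* (-1.34), and the highest of *Klc4* (0.67). Without them the SD of the change of *Kif13b* went in cortex from 0.195 to 0.115, in liver from 0.511 to 0.287, and that of *Kif1b* in liver from 0.274 to 0.162. *Kif16b* in cortex moved from 0.16 to 0.144.

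Genes that work with kinesins were described from lists of partners, of the opposing motor and of the track, and their counts stand beside 33% of all genes up and 35.4% down in cortex and 21.5% up and 22.6% down in liver. Among kinesin partners and cargo adaptors, 11 of 26 rose and 9 fell in cortex, with *Rhot2* (0.37) and *Trak1* (0.18), which tie mitochondria to kinesin-1, among the rises and *Hap1* (-0.13) and *Plekhm2* (-0.11), adaptors of vesicles and lysosomes, among the falls. In liver 3 of 23 rose and 5 fell, and *Kifap3*, the shared subunit of the *Kif3* motors, rose by 0.28 (adjusted p = 3.11e-05, limma). In cortex it stood at -0.05 (adjusted p = 0.558, or 6.18e-06 with the replicate block), with 32 of 39 pools lower in SD. Of cytoplasmic dynein and dynactin, the minus-end motor complex, 6 of 25 rose and 12 fell in cortex and 7 of 24 rose and 4 fell in liver, where the light chain *Dynll1* rose in every pool (0.46) as it did in 38 of 39 in cortex (0.34). Of microtubule-associated proteins, 5 of 16 rose and 6 fell in cortex (*Dclk1* 0.29, *Dcx* -0.63, *Stmn4* -0.31), and 3 of 11 rose and 3 fell in liver. The median log2 fold changes of these lists lay between -0.05 and 0.03 in both tissues, as did those of all genes.

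RNA of other cells moved with SD in liver. All 6 B cell markers fell there, with a median log2 fold change of -1.53 and sums of 2.95 to 4.90 in Ctr and 1.46 to 3.87 in SD pools, while no B cell marker was listed in cortex. None of 7 hepatocyte markers was called (3 of 4 oligodendrocyte markers and the neuronal *Syt1*, at -0.82, fell), beside 44.2% of all genes in liver. *Kif21b*, *Kif5a* and *Kif1a* are neuronal or immune genes and are sparse in liver, at 39.4, 7.67 and 5.03 reads per Ctr library. The part of these cells in the kinesin changes was not tested. In cortex 4 of 6 neuron markers were called (*Nefl* up by 0.24, and *Syt1*, *Slc17a7* and *Rbfox3* down by 0.16, 0.12 and 0.09), beside 68.4% of all genes.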

How the data were processed

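The authors deposited log2 CPM, 1 table per tissue and condition. Per the paper's methods, stranded single-end reads were aligned to mm9 (STAR) and counted per RefSeq gene (htseq-count), genes of low mean were dropped, and the TMM scaling of edgeR was applied. Versions were not given in the sources used here. Reversing these steps returned whole numbers of reads (tolerance 0.02) for 100% of values, which gave depth, counting error and the voom fits.

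SD and Ctr pools (39 each) were compared with limma 3.58.1 in R 4.3.3 (lmFit, eBayes with a variance trend, no block), strains with a moderated F test, parental strains on 8 pools, and tissues on the liver minus cortex change of each pool. P-values were adjusted after Benjamini and Hochberg across the genes of a tissue, or across the 12695 genes listed in both for the tissue difference. The study used voom weights, tried here as an alternative. Deviations of SD and Ctr pools of a line correlated (cortex median 0.614 with a minimum of 0.299, liver median 0.475 with a minimum of 0.169, while medians between lines were -0.0197 and -0.0180), and SD and Ctr mice were paired within cohorts, so the line served as a replicate block beside the results it changes. Counting error was taken from the recovered reads of both libraries and covers counting only. The intraclass correlation is from a one-way analysis of condition-centred values. The scripts were tested on simulated data.

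Exonic lengths and mm9 positions are from GENCODE vM1, promoters from the RefSeq table (35 members matched). Members, lists, tests and alternatives were chosen with earlier results of these data known. Named with values were kinesin-3, in each tissue the 5 largest called rises and falls, the 5 largest called tissue differences, the 5 highest intraclass correlations, genes called between parental strains in both tissues and the 3 highest levels per exonic length. Other members were given by family. P-values measure the spread between pools, and a pool hides the spread between its mice. Other settings were eBayes without a trend, median-centred and quantile-normalized libraries, all 43 pools, a floor of 0 on a gene's mean, averaged parental pools, the BXD/RwwJ lines without the others, and leaving out pools. The settings without BXD90 or BXD70 were chosen after the data were seen.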

Additional observations from a re-analysis of the deposited data

Results flagged for a closer look

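The SD response differed between tissues, by limma on the liver minus cortex change of each pool, for 14 kinesins. The difference was -0.61 for *Kif21b*, -0.49 for *Kifc3*, -0.45 for *Kif5a*, -0.39 for *Kifc2*, -0.33 for *Kif26b*, -0.16 for *Kif21a*, -0.14 for *Kif5b*, -0.12 for *Kif3b* and -0.0859 for *Kif1c*. It was 0.11 for *Klc1*, 0.28 for *Klc4*, 0.30 for *Kif16b*, 0.37 for *Kif20b* and 0.49 for *Kif3c*. The paired adjusted p (limma) was 0.00677 for *Kif5a*, which is sparse in liver, and 0.0438 for *Kif26b*. Without the pairing, *Kif5a* (0.0665), *Kif26b* (0.0761) and *Kif3b* (0.0513) missed the threshold. *Kif26b* also missed it without BXD70 and BXD90.

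DBA/2J was below C57BL/6J for *Kif16b* in cortex (-0.44) and above it in liver (0.42), in every pool of either condition. The difference between these tissue values was not tested.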

How the results depend on the processing

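In liver, the line as a replicate block raised the count of called kinesins from 11 to 17, also with voom (17) and without BXD70 (17), and in cortex from 23 to 27. Over all genes the block raised the count from 6229 to 7603 in liver and from 10191 to 11359 in cortex. Tissue differences among the kinesins numbered 11 without the pairing, against 14. Leaving out 1 parental pool gave 8 to 10 called parental differences in cortex (13 with all, 8 without D2-1) and 1 to 2 in liver (3 with all, 1 without D2-1 or D2-2). Over all genes these were 2398 to 3417 in cortex and 1433 to 1767 in liver (3804 and 2524 with all), and 2344 and 1583 from Ctr pools alone. Signs turned for *Kif1c* (-0.00788) and *Kif14* (0.0637) in cortex with quantile normalization, and for *Kif13b* in liver with quantile normalization (-0.00829), all 43 pools (-0.00483), the 33 BXD/RwwJ lines (-0.0472), without BXD79, BXD85 and BXD101 (-0.00255) and parental pools averaged (-0.0167), none of which was called. The causes were not tested. Of 554 alternative values of named kinesins, 536 kept direction and call, 7 turned sign, 6 lost and 5 gained the call. In liver 13 members had a library without a read, which limits their folds.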
